A study of Sus scrofa with 67 samples.

Results

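ENSSSCG00000030051 is a pig gene known here only by its Ensembl identifier, 1 of 25322 genes in a table of RNA-seq counts from the endometrium, ovary and oviduct. It was chosen by its endometrium counts, which were far lower on day 9 of the oestrous cycle than on day 0, so the endometrium values of these 2 days are given as a description, without a test. The identifier was not paired with a symbol in the name table used here, in which 11804 of the 25322 identifiers had one, and neither a position nor a protein is given for it.

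The tissues came from crossbred (Landrace × Yorkshire) gilts of similar age, without hormone treatment stated in the sources used here, and day 0 was the first day of oestrous behaviour. Each of the 3 tissues was sampled every 3 days from day 0 to day 18, which gave 21 groups of a tissue and a day. The table holds 66 libraries, 22 of each tissue, with 2 to 4 in a group. Libraries are named below by the tissue, the day and the number that the table gives them.

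The endometrium is the lining of the uterus, whose glands secrete the fluid that nourishes an early embryo. After ovulation the corpora lutea secrete progesterone, and in a cycle without pregnancy they regress late in the luteal phase under prostaglandin from the endometrium. Growing follicles then secrete estrogen until the next oestrus, and many endometrial genes are known to follow these hormones.

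Total counts per library lay between 8962103 and 13442083, and 3 counts, taken as the lowest detectable level, correspond to between 0.229 and 0.344 CPM, the count scaled to a common library size. The reads carry no molecular identifiers, so these floors cover counting error only. The labels do not tie each library to a gilt, so the p-values measure the spread between these libraries. The methods give 3 gilts for each day, and a group of 4 libraries, such as the endometrium of day 15, exceeds that number, so libraries of it may share a gilt and its p-values may be too small. The markers fixed for the ovary were low in the endometrium, where FSHR, the receptor for follicle-stimulating hormone, was listed at 0 in all 22 libraries. OVGP1, the oviductal glycoprotein, reached at most 112 CPM in the endometrium and was at 1017 CPM or more in every oviduct library.

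In the endometrium, 2 libraries whose level of the gene was far from the others of their day were also compared with all days over 15341 tested genes. Library 2 of day 15 correlated with the day 12 libraries more than with its own day, with a mean Pearson r of 0.973 against 0.916, and its nearest library was library 1 of day 12. Why it did so was not tested and its day cannot be checked here. It is called a day 15 library below because it is labelled so. Library 2 of day 0 had its nearest library on day 18, although its mean r with the other day 0 libraries, 0.974, was above its mean r of 0.968 with day 18. A mean r slightly higher with another day than with its own was also seen in library 3 of day 6 (0.974 with day 9, 0.971 with its own) and in the other libraries of day 15, with day 18, of which library 4 had the widest gap (0.967 against 0.949). Without library 2 of day 15, the other libraries of that day had own-day means of 0.970 to 0.973, each above its mean with day 18, so that direction turned on library 2. The main results on the gene that rest on library 2 of day 15 or library 2 of day 0 are given with and without them.

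The gene was found almost wholly in the endometrium, and there mostly late in the cycle. It received 95827 counts over the 22 endometrium libraries, of which 90.1% were on days 15 and 18. In 7 endometrium libraries it had over 1000 counts, and in 7 others it had 3 or fewer.

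On day 0 the gene had 141, 8636 and 55 counts in libraries 1, 2 and 3, or 14.1, 824 and 5.08 CPM. Library 2 was 58.3-fold above library 1 and 162-fold above library 3, and the mean of 281 ± 470 CPM (SD, n = 3) lay far from each of them. On day 3 the counts were 2, 17 and 4, and the mean was 0.756 ± 0.833 CPM (SD, n = 3). On day 6 the counts were 1, 2 and 1, and on day 9 they were 0, 1 and 0, so that all 6 libraries of these days lay at or under the floor of 3 counts.

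Counts were again above the floor in every library of day 12, at 93, 6 and 496, or 7.67, 0.639 and 48.5 CPM, with a mean of 18.9 ± 25.9 CPM (SD, n = 3). On day 15 the 4 libraries had 3784, 9, 12052 and 33097 counts, or 410, 0.851, 1135 and 2998 CPM. The highest of them was 3524-fold above the lowest, which was library 2, the library that resembled day 12. The day 15 mean was 1136 ± 1327 CPM (SD, n = 4) with that library and 1514 ± 1335 CPM (SD, n = 3) without it. On day 18 the 3 libraries had 15239, 13881 and 8310 counts, or 1704, 1134 and 679 CPM, the only day on which every library had over 1000 counts.

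By median the days ran 18, 15, 0, 12, 3, 6 and 9, from 1134 CPM on day 18 and 773 CPM on day 15 to 14.1 CPM on day 0, 7.67 CPM on day 12 and 0.390 CPM on day 3. The ranges of each neighbouring pair in this order overlapped, so no neighbours were separated by more than their spread. Without library 2 of day 15 the median of that day was 1135 CPM, level with that of day 18, so the order of these 2 days turns on that library. Without library 2 of day 0 the median of that day was 9.61 CPM, still above that of day 12. Some days further apart in it overlapped as well, such as day 18 with day 0 and day 15 with days 12 and 3. These overlaps came from library 2 of day 0 and library 2 of day 15, since the other day 0 libraries were at most at 14.1 CPM and the other day 15 libraries at least at 410 CPM. All libraries of day 18 lay above those of days 3, 6, 9 and 12, and all libraries of days 0, 12, 15 and 18 lay above those of days 6 and 9. The lowest library of day 18 was 14.0-fold above the highest library of day 12, and the lowest day 15 library other than library 2 was 8.45-fold above it.

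**Figure D1:**
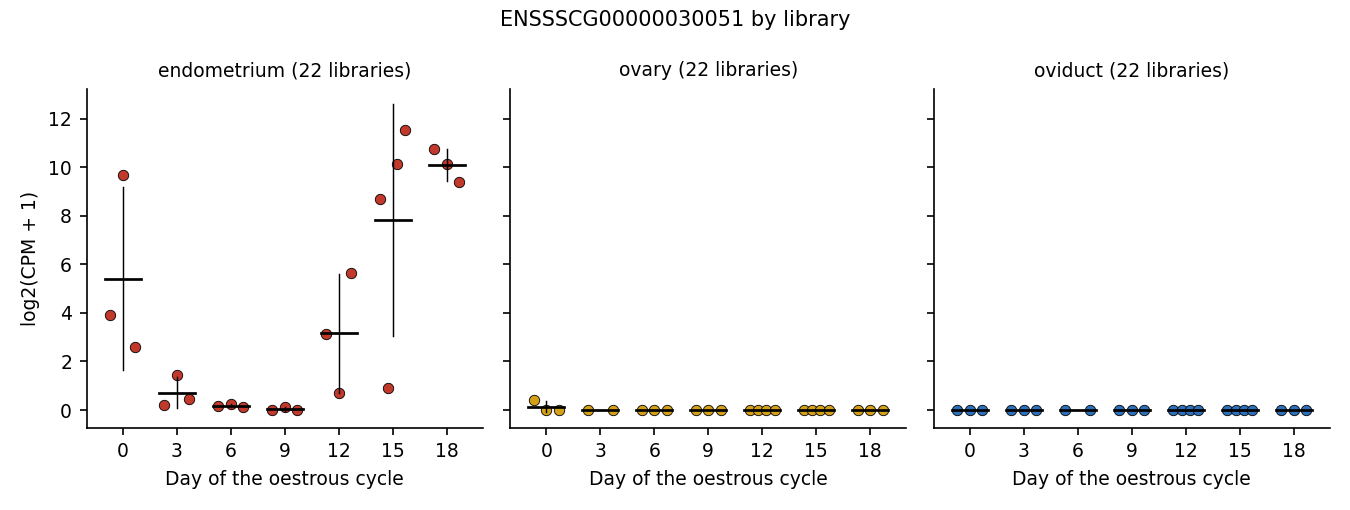
Level of ENSSSCG00000030051 as log2(CPM + 1) in each library (points) by day of the cycle in the endometrium, ovary and oviduct, with the group mean (wide bar) and SD (thin line). The endometrium points of day 18 are all high, those of days 6 and 9 lie at the floor, and single libraries of day 0 (high) and day 15 (low) lie away from the others of their day.

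In the ovary the gene had 4 counts in library 1 of day 0 and 0 in the other 21 libraries, and in the oviduct it had 0 counts in all 22. On day 18 the endometrium mean was therefore at least 4961-fold higher than the floor of 3 counts per library in the ovary and at least 3582-fold higher than that in the oviduct. No p is given for these differences, since the gene passed the filter on low counts only through the endometrium. The change from day 12 to day 18 could not be compared between tissues because the estimate has no finite error where every library of the other tissue is at 0.

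The endometrium days other than 0 and 9 were compared as well. The gene was chosen with earlier results of these data known, so p-values for these days may not be independent of that choice. They are given as a description. Across days 3, 6, 12, 15 and 18, the edgeR quasi-likelihood F test with Benjamini-Hochberg adjustment gave the gene an adjusted p of 0.000718. This is a call at the threshold of 0.05, which 50.2% of the 15341 genes tested shared. The mean log2(CPM + 1) was 8.79 ± 3.60 in the 7 libraries of days 15 and 18 and 1.67 ± 2.25 (SD) in the 6 libraries of days 6 and 12. This difference of 7.13 had a two-sided exact permutation p of 0.00350, which is likewise a description. Leaving out any 1 of the 13 libraries gave differences of 6.67 to 8.45 with exact p-values of 0.00216 to 0.00758, and the largest of these differences, 8.45, was that without library 2 of day 15.

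The gene was higher on day 18 than on day 12, by 5.95 on the log2 scale (SE 1.93) with an adjusted p of 0.0368 in edgeR's quasi-likelihood test. At that threshold 20.2% of genes tested were called in either direction and 9.43% as higher on day 18. The call was close to the threshold. It was lost without library 1 or 2 of day 12 (adjusted p of 0.109 and 0.1002) and without library 1, 2 or 3 of day 18 (0.0668, 0.0624 and 0.0579), and it held without library 3 of day 12 (0.0386). It was also lost with no filter on low counts (0.0620). Library 2 of day 15 and library 2 of day 0 were also left out of the shared estimate of the spread, a setting chosen after seeing the data. The edgeR adjusted p was then 0.000756 at a log2 fold change of 5.93 (SE 1.05). A smaller SE follows in part from that choice.

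Between day 12 and day 15 the log2 fold change was 5.91 (SE 1.90), with an edgeR adjusted p of 0.0630 that misses the threshold, in a comparison where 3.90% of genes were called higher on day 15. Without library 2 of day 15 it was 6.32 (SE 1.57), with an adjusted p of 0.00635, and 13.6% of genes were then called higher. Day 18 against day 15 gave 0.05 (SE 1.45, adjusted p = 0.992), with 1.01% of genes called, and -0.37 (SE 1.24) without library 2 of day 15. Day 6 against day 3 gave -2.34 (SE 3.59, adjusted p = 0.706), with 18.9% of genes called, at counts of 1 to 17. The errors of these last comparisons are wide, and a difference was not detectable there.

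**Figure D2:**
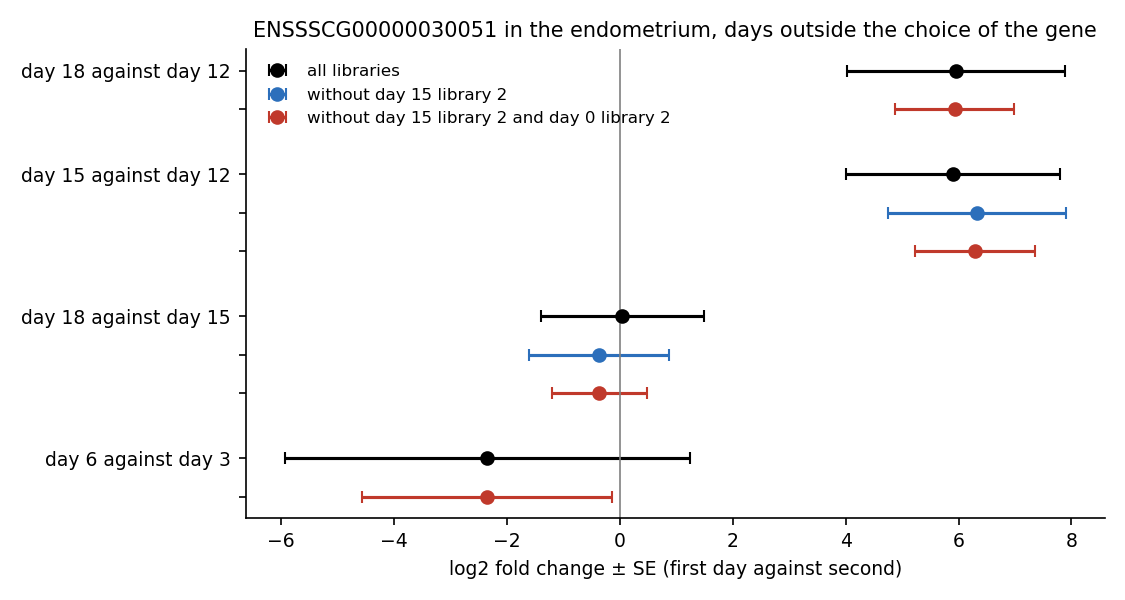
Log2 fold change of ENSSSCG00000030051 (points) with its standard error (bars) for 4 pairs of endometrium days that did not choose the gene, with all libraries and without the libraries that stood apart. Day 18 against day 12 lies near 5.95, day 15 against day 12 near 5.91, and day 18 against day 15 near 0.

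On days 0, 12 and 15 the spread between libraries was among the largest of all genes tested. On days 6 and 9 the floor holds the SD low, so the percentiles of those days are not informative. The SD of log2(CPM + 1) was 3.77 on day 0 and 4.77 on day 15, in both cases the largest of the 15341 genes tested, whose median SDs were 0.19 and 0.32. Without library 2 it was 0.93 on day 0 (n = 2) and 1.43 on day 15 (n = 3). On day 12 it was 2.46, number 12 among genes, on day 18 it was 0.66, at the 93.1 percentile, and on day 3 it was 0.64, at the 92.9 percentile. On days 6 and 9, where the gene was at the floor, it was 0.068 and 0.081, at the 8.69 and 16.4 percentiles. The biological coefficient of variation that edgeR fitted over all endometrium libraries was 1.31, at the 99.7 percentile, 1.15 without library 2 of day 0 and 1.11 without library 2 of day 15.

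The gene was next set beside the position of each library in the change from day 12 to day 18. For the 3101 other genes called in that comparison, a position of 0 is the mean of day 12 and 1 the mean of day 18, and the median over genes was taken. Day 12 and day 18 set the scale, so only the other days are informative. Library 2 of day 15 lay at 0.05, against 0.69 to 0.93 in the other 3 libraries of that day, and it was also the day 15 library with 9 counts of the gene.

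On day 0 the order was different. Libraries 1 and 2 both lay at 0.85 and library 3 at 0.80, yet the gene was at 14.1, 824 and 5.08 CPM in them. The day 3 libraries lay at 0.77 to 0.89, where the gene had at most 1.71 CPM, whereas day 15 libraries at 0.69 to 0.93 had 410 CPM or more. Libraries at like positions thus differed widely in the level of the gene, and library 2 of day 0 was within the range of those day 15 libraries. The day 6 libraries lay at 0.30 to 0.40 and the day 9 libraries at 0.09 to 0.20, all with the gene at the floor.

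**Figure D3:**
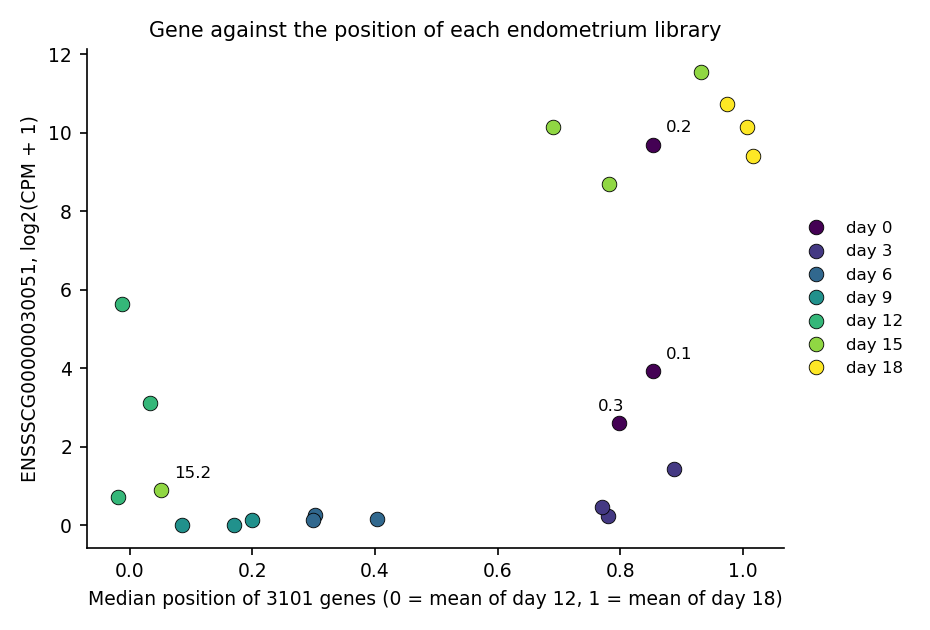
Log2(CPM + 1) of ENSSSCG00000030051 in each endometrium library (vertical) against the median position of 3101 other genes between the mean of day 12 (0) and the mean of day 18 (1), coloured by day, with 4 libraries marked by day and number. Library 2 of day 15 lies with day 12 at 0.05, and the day 0 libraries share positions of 0.80 to 0.85 while differing in the gene.

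The 10 genes whose pattern was most like it were named by Pearson r of log2(CPM + 1) over the 22 endometrium libraries. These r values are a description, since libraries of a day share their stage and the gene's own day 0 and day 9 values enter them. Over all tested genes the median r was -0.03, 44 genes had an r above 0.9 and 11 below -0.9. The 9 reported here were BSPH1 (0.96), of the binder of sperm protein family, ENSSSCG00000017092 (0.96), QSOX1 (0.96), which forms disulfide bonds in secreted proteins, SERPINA11 (0.95), of the serpin family, RBP4 (0.94), the plasma carrier of retinol, ENSSSCG00000009996, ENSSSCG00000014540, CDV3 and MYO10, a myosin of filopodia. The tenth had an r of 0.934 and the next gene 0.932, so the list has no natural end. Without library 2 of day 15 and library 2 of day 0, 8 of the 10 were still among the 10 highest, a setting chosen after seeing the data. Of the 10, 3 were among the 10 highest by Spearman rho, 6 with a pseudocount of 0.1 and 1 over the libraries of all 3 tissues, so membership of the list depends on the measure.

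RBP4 had means of 82.3 ± 33.5 CPM on day 6, 538 ± 710 CPM on day 12, 6447 ± 4252 CPM on day 15 (SD, n = 4) and 4366 ± 3101 CPM on day 18 (SD, n = 3 on the other days). In library 2 of day 15 it was at 124 CPM, and without that library the day 15 mean was 8554 ± 687 CPM (SD, n = 3). SERPINA11 was at 0.068 ± 0.118 CPM on day 9 and 23.3 ± 4.84 CPM on day 18.

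All 10 similar genes had library 2 as the lowest of day 15, as did 34.9% of the genes tested, and all 10 had library 2 as the highest of day 0, as did 34.8%. All 10 also had the day 12 order of the gene itself, library 3 above 1 above 2, which 20.1% of genes had. The list was chosen over these same libraries, so these counts describe it. With r taken on deviations from the mean of each day, the 10 had values of 0.86 to 0.95, but only 2 of them were among the 10 highest on that measure.

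The 5 genes with the most opposite pattern were SEMA4A (-0.94), a semaphorin, ZMYM3 (-0.94), a zinc finger protein, ENSSSCG00000017285 (-0.93), MAP4K2 (-0.92), a kinase, and ENSSSCG00000021462 (-0.91). MAP4K2 had a mean of 82.4 ± 7.63 CPM on day 9 and 21.4 ± 3.96 CPM on day 18 (SD, n = 3). All 5 had library 2 as the highest of day 15, as did 35.5% of the genes tested.

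**Figure D4:**
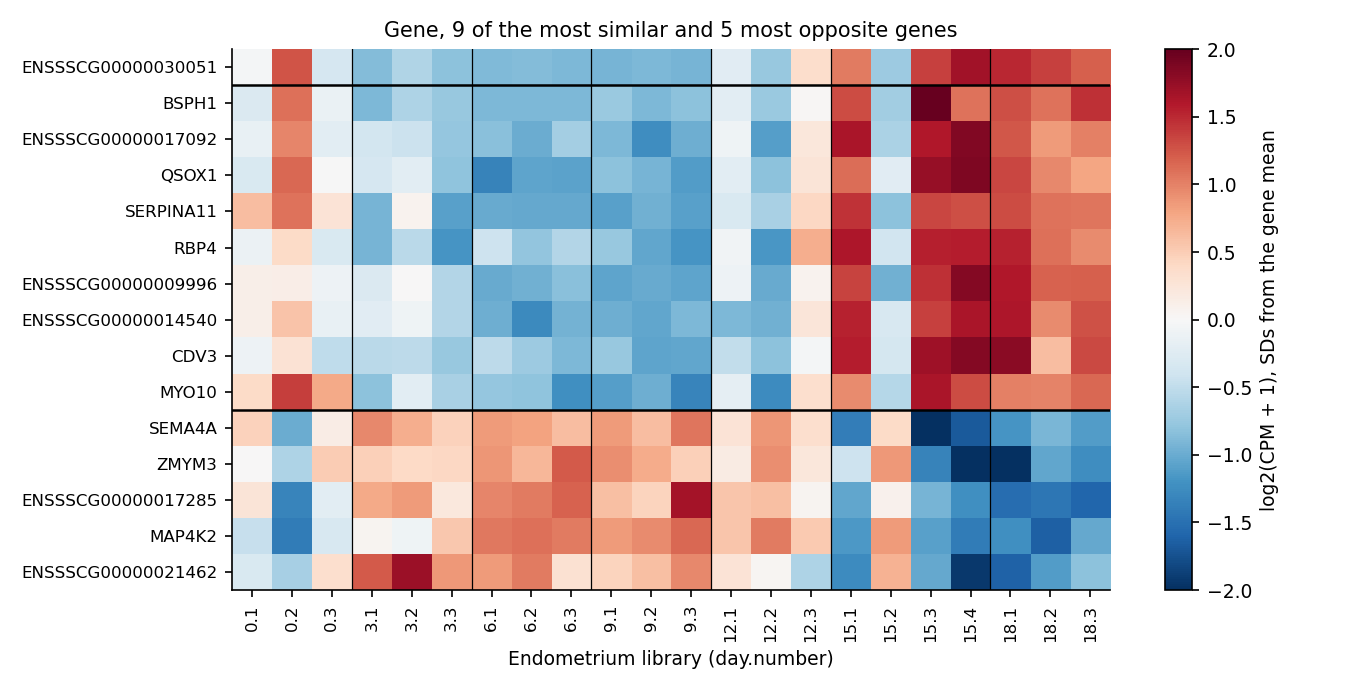
Heat map of log2(CPM + 1) in the 22 endometrium libraries (columns, day and number), as SDs from the mean of each gene, for ENSSSCG00000030051 (top), 9 of the 10 most similar genes and the 5 most opposite genes (bottom). Library 2 is the lowest library of day 15 and the highest library of day 0 for the gene and these similar genes.

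The similar genes were not all limited to the endometrium as this gene was. ENSSSCG00000017092 had a median of 14395 CPM in the ovary, QSOX1 was at medians of 216 CPM in the ovary and 266 CPM in the oviduct, and RBP4 was at 2.19 and 18.1 CPM. SERPINA11 had a median of 0 and at most 0.386 CPM in the ovary. In the oviduct it had a median of 0.983 CPM and reached 16.2 CPM.

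Genes with at most 10 counts in total over the 44 ovary and oviduct libraries and at least 1000 in some endometrium library numbered 4. Besides ENSSSCG00000030051 they were ENSSSCG00000022251, SLC9A4, a sodium and proton exchanger, and ENSSSCG00000021692, named after their values were seen. ENSSSCG00000022251 had up to 25882 counts in an endometrium library and an r of 0.92 with the gene. SLC9A4 and ENSSSCG00000021692 had r values of -0.27 and -0.58.

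ENSSSCG00000002981, another gene with a large fall from day 0 to day 9, had an r of 0.47 with it. That gene had 8722 to 15336 counts in each day 0 endometrium library and 2 to 669 on day 15, and 60101 to 121280 in the day 0 oviduct, where ENSSSCG00000030051 had 0.

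Markers of other cells were set beside the gene, because fewer cells of a type and less RNA per cell cannot be told apart in bulk tissue. EPCAM, an epithelial adhesion molecule, had an r of 0.87 with the gene and PECAM1, of endothelium, 0.85, whereas the epithelial keratin KRT8 had -0.68 and the estrogen receptor ESR1 -0.76. The other epithelial markers, CDH1 and KRT18, had 0.35 and -0.18. Among stromal markers VIM had 0.76, DCN 0.50 and COL3A1 0.47, the smooth muscle markers ran from 0.18 for MYH11 to 0.78 for ACTG2, with CNN1 at 0.75, and among leukocyte markers CD14 had 0.74 and PTPRC -0.37. The 4 epithelial markers summed to 2192 to 5162 CPM on days 6 and 12 and to 1727 to 2689 CPM on days 15 and 18. PECAM1, the 1 of 2 endothelial markers matched, was at 83.6 to 235 CPM on days 6 and 12 and at 236 to 415 CPM on days 15 and 18 without library 2 of day 15, which had 90.4 CPM. The 4 smooth muscle markers summed to 43.9 to 219 CPM and then to 113 to 275 CPM, and ESR1 and PGR, the progesterone receptor, to 607 to 800 CPM and then to 301 to 820 CPM, or to 301 to 558 CPM without library 2 of day 15. The 3 stromal markers matched summed to 4948 to 16323 CPM on days 6 and 12 and to 8765 to 13442 CPM on days 15 and 18. The part of cell composition in the level of the gene was not tested.

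Whether the reads were counted by strand is not given in the sources used here, so reads of an overlapping or antisense gene cannot be told apart from those of ENSSSCG00000030051, and a near-identical copy could share its reads.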

How the data were processed

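RNA-seq libraries were prepared from polyadenylated RNA of endometrium, ovary and oviduct. The authors trimmed paired-end reads and aligned them to a pig genome assembly using Ensembl gene models. Raw counts per gene, not normalized or pooled, were deposited for each library. The submitters' processing notes name featureCounts and edgeR, whose versions are not given in the sources used here. The labels list 67 samples and the table has 66 columns. The endometrium on day 12 has 4 labelled samples and 3 columns. Columns were assigned to groups by tissue and day, since their numbers do not match those of the titles.

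Counts were analysed with edgeR 4.0.16 in R 4.3.3: TMM normalization, filterByExpr, and the quasi-likelihood test with Benjamini-Hochberg adjustment over all genes tested, at a threshold of 0.05. CPM are computed from the deposited counts with TMM-adjusted library sizes, and logs use a pseudocount of 1. All 7 days of the endometrium, or all 21 groups for comparisons of tissues (not read as tests for this gene, which is at 0 in the other tissues on day 18), shared 1 estimate of the spread. In the ovary and oviduct the gene did not pass the filter. Without that filter, the quasi-likelihood test in the ovary gave an adjusted p of 0.401 for day 9 against day 0 and 0.586 over all days. With 4 counts in 1 of 22 ovary libraries, these values say nothing about change in the ovary. The oviduct had no counts to test. Permutation tests used scipy 1.17.1 and DESeq2 1.42.0 was an alternative. Data were simulated for day 18 against day 12 with 15341 genes. Of the genes changed by 2-fold 22 of 50 were recovered, and of those changed by 16-fold 49 of 50, with 6 false calls. The changed genes were drawn at random among better expressed genes, so these rates do not describe a gene as variable as ENSSSCG00000030051.

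The named genes are ENSSSCG00000030051, the 10 genes of highest and the 5 of lowest Pearson r with it over the endometrium libraries among genes that passed the filter, and ENSSSCG00000002981. Of the 10, 1 is not reported here. The gene and the lists were chosen with earlier results of these data known. Same-numbered libraries of the endometrium and ovary on day 18 deviated together (r of 0.199 to 0.223 for the 3 pairs). Those of the endometrium and oviduct did so less evenly (0.0884 to 0.219), and on day 12 the endometrium and ovary pairs had 0.0402 to 0.127. Libraries of different days came from different gilts, yet same-numbered endometrium libraries of days 15 and 18 had -0.0891 to 0.329. These r values thus do not tell whether same-numbered libraries share a gilt.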

Additional observations from a re-analysis of the deposited data

Results flagged for a closer look

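In the endometrium on day 15, 1 library lay far from the other 3 for several genes, by the gap to the nearest library as a share of the whole range on log2(CPM + 1). In each case it was library 2. It was the lowest for RBP4 (0.966), SERPINA11 (0.927), ENSSSCG00000017092 (0.898), CDV3 (0.879) and ENSSSCG00000014540 (0.866), and the highest for MAP4K2 (0.86). The mean correlation of library 2 with the other libraries of its day was likewise far below theirs (0.857 by the same share). These are 7 of 17 sets of values examined, where chance alone singles out about 1 set in 20. The genes were picked for their likeness to a gene that has its lowest day 15 value in library 2, and the sets share the same 4 libraries, so the count follows in part from the choice and supports nothing further. The gene ENSSSCG00000030051 itself did not pass this limit, because its other 3 libraries of day 15 were also widely spread.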

How the results depend on the processing

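The variation across days 3, 6, 12, 15 and 18 kept its call under all 22 alternatives (adjusted p of 5.39e-05 to 0.00256 without single libraries). The comparisons with the ovary and oviduct on day 18, where those tissues are at 0, are not read as tests. Days 15 and 18 against days 6 and 12 kept an exact permutation p under 0.05 in 15 alternatives. For day 18 against day 12, leaving out single libraries gave log2 fold changes of 5.39 to 8.10 and adjusted p-values of 0.0386 to 0.109, and the test without a filter on low counts gave 5.93 (0.0620). Over 13 alternatives its adjusted p ran from 0.000756, in a setting chosen after seeing the data, to 0.109. For day 15 against day 12, single libraries left out gave 4.77 to 8.05, and the call appeared without library 2 of day 15 (6.32), with DESeq2 (5.90, adjusted p of 0.00563) and, chosen after seeing the data, without library 2 of day 15 and library 2 of day 0 (6.29, 0.000526), and its adjusted p ran from 0.000526 to 0.338. Day 18 against day 15 changed sign, with -0.37 to 1.19 without single libraries and -0.36 without the 2 libraries that stood apart. Day 6 against day 3 ranged from -2.85 to -0.96, never called, and could not be fitted with only its own groups, where the gene failed the filter. With the replicate number as a block, which pairs different gilts, day 15 against day 12 gave 4.92 (adjusted p of 0.175, with 0 genes called by edgeR, against 947, and 3094 at an unadjusted p under 0.05), day 18 against day 15 gave 1.42 and day 18 against day 12 gave 6.35 (0.0439). The block changed no call for the gene. Counts of called genes for day 15 against day 12 ran from 0 to 4349 (2103 with DESeq2), for day 18 against day 15 from 0 to 747 against 155, for day 18 against day 12 from 1629 to 3940 against 3102, and for day 6 against day 3 from 1753 to 3568 against 2898. The biological coefficient of variation was 1.33 without a filter and 1.11 to 1.27 without single day 0 libraries or, chosen after seeing the data, library 2 of day 15 (1.11). Of the 10 most similar genes, 3 stayed in the top 10 by Spearman rho, 6 with a pseudocount of 0.1, 1 over all libraries of the 3 tissues, 2 on deviations from the mean of the day, and 8 to 10 without single day 0 libraries. Over all 3 tissues r was -0.0023 for ENSSSCG00000017092 and 0.0639 for SEMA4A. With genes changed at least 4-fold, library 2 of day 15 had a position of -0.02. The cause of these differences was not tested.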
